A study of Rattus norvegicus with 4 samples.

Results

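The extracellular matrix is the network of collagens, laminins, glycoproteins and proteoglycans that cells secrete around themselves, and integrins are the surface receptors, each built of an alpha and a beta chain, that hold cells to it. Genes of both kinds were picked by name: every probe set with a single annotated gene symbol of a collagen chain, a laminin chain or a numbered integrin chain, together with a fixed list of nidogens, perlecan, other matrix glycoproteins, lecticans, syndecans, Cd44 and the tissue inhibitors of metalloproteinases (TIMPs). This gave 86 of the 14217 named genes on the array, measured by 134 of its 31099 probe sets. The rule uses names alone, but the members were chosen with earlier results of these data known. A share of called members above the background is thus a description and no test. Integrin chains named by a letter, such as Itgav, were outside it and are described with the other genes of the pathway.

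RNA was measured in hippocampal progenitor cells from Fisher 344 rats, cells that proliferate in culture and give rise to neurons and glia. There were 4 groups: KHS101 at 5 uM, KHS101 at 1.7 uM, 1 uM retinoic acid with forskolin, and the solvent dimethyl sulfoxide (DMSO). KHS101 is a small molecule studied for neuronal differentiation, retinoic acid acts through nuclear receptors, and forskolin activates adenylyl cyclase; the labels give no forskolin concentration, and for this positive control the series design lists only retinoic acid. Early passage cells were treated for 4 days in N2 medium after plating at 1000 cells per cm2, per the labels' protocols; cells being expanded beforehand were kept with basic fibroblast growth factor on polyornithine and laminin, so laminin protein was also supplied to them from outside. Whether the treatment dishes were coated is not stated, and the age and sex of the rats are not given in the sources used here.

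Each group was 1 Affymetrix array, so no test, standard error or p-value could be had, and every difference lacks a replicate check. All values are log2 expression values, and a value of 5 was taken as the floor of specific signal. A gene was measured in a comparison if either array was above the floor. A difference of 2-fold or more was called. Where the other array was at the floor, the fold is a lower bound and is written "at least". A level of one gene cannot be set against that of another on such arrays, since each probe set responds differently.

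In brain tissue the matrix is unusual: it holds little fibrillar collagen, and is rich in lecticans, the chondroitin sulphate proteoglycans that bind hyaluronan, and in the tenascins that link them. Basement membranes of laminin, type IV collagen, nidogen and perlecan line vessels and the outer surface of the brain. Neural progenitors hold to laminin mainly through integrins that contain the beta-1 chain.

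Most of the genes lay at or below the floor in these cultures. Of the 86 genes, 34 were above the floor on at least 1 array and 28 on all 4; the other 52 were at or below it throughout. All 3 lecticans (Vcan, Bcan and Ncan) were above the floor on every array, as were all 3 TIMPs, and 4 of the 5 receptors other than integrins. Only 3 of 11 fibrillar collagen genes and 1 of 7 basement membrane collagen genes were. Col1a1, Col1a2 and Col3a1, the chains of the common collagens of connective tissue, were never above the floor, and neither were fibronectin (Fn1), Sparc, Col4a2 or perlecan (Hspg2). Col4a1 was above the floor on all arrays although Col4a2, its partner in the type IV collagen molecule, was not; 1 probe set measured Col4a2, and a probe set without signal does not show that the transcript is lacking. Of 8 integrin alpha chains, Itga6 and Itga8 were above the floor on every array and Itga9 on 2 of them, and of 7 beta chains, Itgb1, Itgb3 and Itgb5 were.

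Markers of other cell types that make matrix were mostly at the floor. Of 8 microglia and macrophage genes, 0 were above it on any array. Of 8 pericyte and smooth muscle genes 1 was on each array (Acta2). Of 8 endothelial genes, 2 (Kdr and Vwf) were above the floor in retinoic acid with forskolin, and 0 on the other arrays. Of 10 fibroblast and meningeal genes, 4 were above it in retinoic acid with forskolin and 3 on each other array. Pdgfra, Igf2 and Twist1 were the 3, and Ptgds was added in retinoic acid with forskolin. The fibroblast genes Dcn and Lum were at the floor on all arrays. Pdgfra is also on the oligodendrocyte lineage list and is counted in both. The marker lists that bear on the identity of the cells matched the label in part: Nes, Sox2, Vim and Fabp7 were above the floor on every array, and Pax6 and Prom1 on none. Of 8 astrocyte genes 3 (S100b, Slc1a3 and Fgfr3) and of 8 neuron genes 3 (Tubb3, Map2 and Elavl3) were above it on every array, and the rest of both lists on none. Oligodendrocyte lineage genes were well represented, with 7, 7, 9 and 8 of 9 above the floor on the KHS101 5 uM, KHS101 1.7 uM, retinoic acid with forskolin and DMSO arrays. On each array between 30 and 33 of the member genes lay above the floor.

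With KHS101 at 5 uM, 8 of 33 measured matrix and integrin genes were higher than in DMSO, 3 were lower and 22 were neither. Called members made up 33.3% of those measured, against 14.3% of the 8543 genes measured over the whole array; for higher genes the background was 6.16% and for lower genes 8.1%. The share called higher thus lay above the background, and the share called lower (9.09%) was near it. Among the higher genes, Cd44, Postn, Timp3, Tnc and Tnr came from the fixed list, and Col12a1, Lama4 and Lama5 from the collagen and laminin names. Of the 33, 5 were above the floor on 1 of the arrays alone and could pass only through that array. Among the 28 above it on both, 5 were higher and 2 lower, 25% together, with a background of 13.2% for genes of that kind. The median log2 difference of the measured members was 0.04, against 0.00 for all genes measured; 17 members lay above 0 and 16 below. Taken without sign, the median difference was 0.72 for members and 0.36 for all genes.

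At 1.7 uM, 9 of 34 measured members were higher than in DMSO and 3 lower, 35.3% together against a background of 8.63% (4.36% higher and 4.27% lower). Among the 29 above the floor on both arrays, 6 were higher and 3 lower, against a background of 7.9% for calls in either direction. The median log2 difference was 0.33 for the measured members and -0.01 for all genes. With retinoic acid and forskolin, 8 of 32 measured members were higher and 2 lower, 31.2% together against a background of 7.49% (4.34% higher and 3.15% lower); above the floor on both arrays the counts were 7 higher and 2 lower of 30, against 7.03%. The medians were 0.42 for members and -0.03 for all genes. These 3 comparisons share the single DMSO array, so a value of that array that is off for any reason enters all of them. In bulk RNA, fewer cells of a type and less RNA per cell cannot be told apart.

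**Figure D1:**
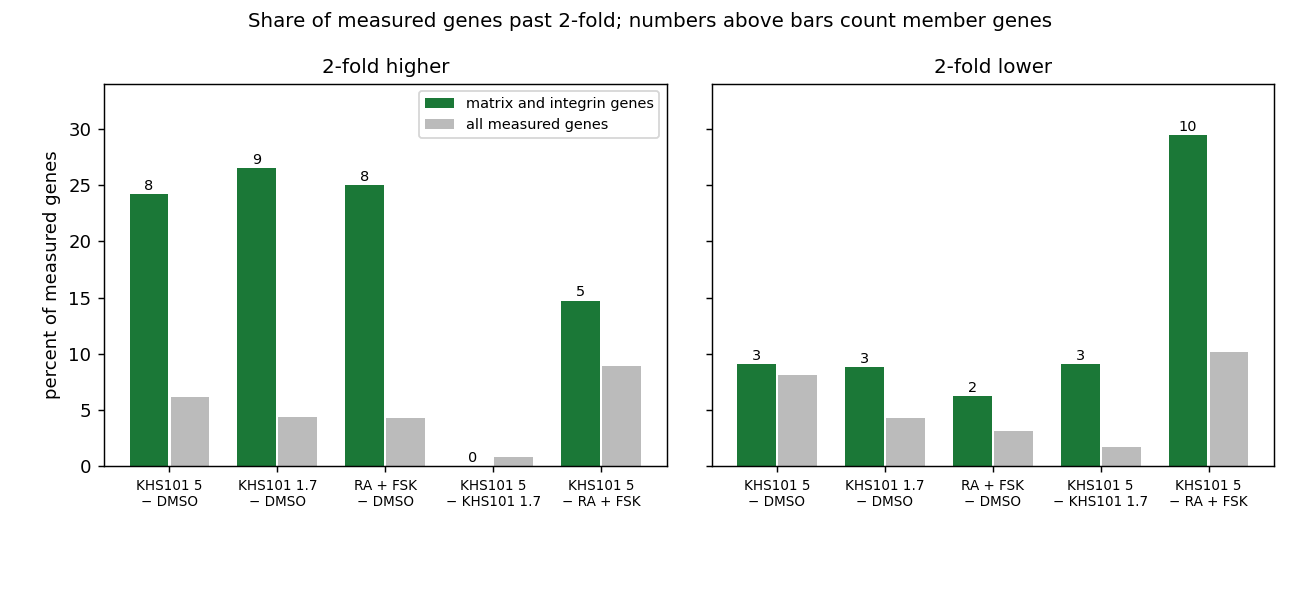
Percent of measured genes that were 2-fold higher (left) or lower (right) in each of 5 comparisons, named as first group minus second group (concentrations of KHS101 in uM; RA + FSK is retinoic acid with forskolin). Green bars are the matrix and integrin genes with their number above the bar, and grey bars all measured genes; with 1 array per group there are no error bars. Members called higher made up 24.2%, 26.5% and 25% of those measured against DMSO, while all genes lay between 4.34% and 6.16%.

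The largest difference of the whole set was that of Mgp, matrix Gla protein, a secreted inhibitor of calcification and a known target of retinoic acid. Its log2 values were 3.27 with KHS101 at 5 uM, 4.92 at 1.7 uM and 13.06 in retinoic acid with forskolin, against 5.13 in DMSO. A single array was thus high, 245-fold above DMSO, and the other 3 were at or next to the floor. A single probe set measured it. No array had retinoic acid or forskolin alone, so their parts in this value cannot be told apart.

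Periostin (Postn), a matrix protein that binds integrins and collagen, was high on all 3 treated arrays. Its log2 values were 6.80 with KHS101 at 5 uM, 7.78 at 1.7 uM and 6.99 in retinoic acid with forskolin, against 4.95 in DMSO, just under the floor. It was at least 3.48-fold, 6.86-fold and 3.96-fold higher, in that order. With 1 probe set and DMSO next to the floor, the size of its difference rests on where the floor is set.

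Tenascin-C (Tnc), a glycoprotein of progenitor niches and of reactive tissue, had values of 7.01 with KHS101 at 5 uM, 6.96 at 1.7 uM and 2.27 in retinoic acid with forskolin, against 3.77 in DMSO. It was above the floor on both KHS101 arrays, at least 4.03-fold and 3.89-fold higher than in DMSO, and on neither of the others. Tenascin-R (Tnr), which in brain is made largely by oligodendrocytes and some neurons and links lecticans, had values of 7.82, 8.42 and 7.10 with KHS101 at 5 uM, KHS101 at 1.7 uM and retinoic acid with forskolin, against 6.24 in DMSO. That is 3.0-fold and 4.54-fold higher with KHS101, and 1.82-fold higher, under the threshold, in retinoic acid with forskolin.

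TIMP3 binds to the matrix and inhibits metalloproteinases and the ADAM sheddases. Its gene was higher with each treatment, and on each of 4 probe sets. On the probe set with the highest signal the log2 values were 11.80 with KHS101 at 5 uM, 11.61 at 1.7 uM and 11.33 in retinoic acid with forskolin, against 9.06 in DMSO. The treated arrays lay close together and DMSO well below them, 6.69-fold, 5.86-fold and 4.84-fold in the same order. On the other 3 probe sets the log2 differences were between 2.78 and 3.26 for KHS101 at 5 uM, between 2.79 and 3.24 at 1.7 uM and between 2.02 and 2.72 for retinoic acid with forskolin. The other TIMPs did not pass 2-fold: Timp2 differed from DMSO by 0.69, 0.56 and 0.27 in log2, and Timp1, which is often induced in glia by injury, by -0.70, -0.34 and -0.49.

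Cd44, the main cell surface receptor of hyaluronan, had values of 10.20 with KHS101 at 5 uM, 9.40 at 1.7 uM and 5.10 in retinoic acid with forskolin, against 6.14 in DMSO. Both KHS101 arrays were far above the rest, 16.6-fold and 9.56-fold higher than DMSO. Retinoic acid with forskolin and DMSO were near the floor, the first 2.07-fold lower. The other Cd44 probe set gave 9.84 with KHS101 at 5 uM, 9.23 at 1.7 uM, 3.53 in retinoic acid with forskolin and 5.06 in DMSO, so the KHS101 difference held on both and the call for retinoic acid with forskolin on 1 of them. Between KHS101 at 5 uM and retinoic acid with forskolin, a pair that does not involve the DMSO array, Cd44 was 34.3-fold higher.

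The promoters of these members that differed by treatment in unlike ways are shown for reference: Timp3 and Postn, higher on all 3 treated arrays, and Cd44 and Tnc, high on the KHS101 arrays. Each is the 250 bases before the annotated gene start, read 5′ to 3′ on the strand of the gene, from RefSeq on GRCr8: Timp3 at chr7:19459559-19459808 (minus strand), Postn at chr2:140677811-140678060 (plus), Cd44 at chr3:109699425-109699674 (minus) and Tnc at chr5:82476132-82476381 (minus). Capitals mark letters of any of 5 motifs, searched on both strands with overlaps allowed: a TATA box (TATANA), a GC box (GGGCGG), an AP-1 site (TGANTCA), a cAMP response element (TGACGTCA) and a nuclear receptor hexamer (AGGTCA).
Timp3: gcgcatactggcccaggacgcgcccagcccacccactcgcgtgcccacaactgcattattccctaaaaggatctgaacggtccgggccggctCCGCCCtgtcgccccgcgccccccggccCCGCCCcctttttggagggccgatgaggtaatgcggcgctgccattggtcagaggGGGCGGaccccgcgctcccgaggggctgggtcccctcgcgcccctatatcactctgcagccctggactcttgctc
Postn: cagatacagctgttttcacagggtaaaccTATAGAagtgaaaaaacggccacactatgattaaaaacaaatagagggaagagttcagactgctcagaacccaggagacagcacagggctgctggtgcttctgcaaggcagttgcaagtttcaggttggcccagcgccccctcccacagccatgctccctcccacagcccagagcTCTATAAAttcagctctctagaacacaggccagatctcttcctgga
Cd44: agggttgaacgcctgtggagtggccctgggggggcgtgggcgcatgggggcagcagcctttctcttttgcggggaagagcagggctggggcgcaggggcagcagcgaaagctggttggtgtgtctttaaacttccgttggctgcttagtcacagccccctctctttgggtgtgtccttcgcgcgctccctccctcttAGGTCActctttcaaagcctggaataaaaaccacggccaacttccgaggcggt
Tnc: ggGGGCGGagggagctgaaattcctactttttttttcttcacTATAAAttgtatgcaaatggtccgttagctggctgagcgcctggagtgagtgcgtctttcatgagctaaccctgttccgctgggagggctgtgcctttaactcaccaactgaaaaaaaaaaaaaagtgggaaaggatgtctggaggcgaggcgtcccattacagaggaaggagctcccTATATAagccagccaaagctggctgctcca

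Timp3 held 3 GC boxes in this window and had 69.6% G and C, against a median of 52.0% over 27457 promoters. Tnc held 1 GC box, and TATA letters near its start, as Postn did. Of the 12 called members with a promoter in the table, 6 held a GC box, which 32.4% of all promoters and 20 of the 27 measured members with a promoter hold. A TATA box was in 3 of the 12 and in 4 of the 27, and 24.1% of all promoters hold it. The hexamer was in the windows of Cd44 and Lama4 (13.7% of all promoters), and the AP-1 letters (6.36%) and the cAMP response element (1.7%) were in 0 of the 12. Matches of letters describe the window alone. Col12a1, Col9a3, Itgb3, Mgp, Nid2 and Sdc2 had no entry.

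**Figure D2:**
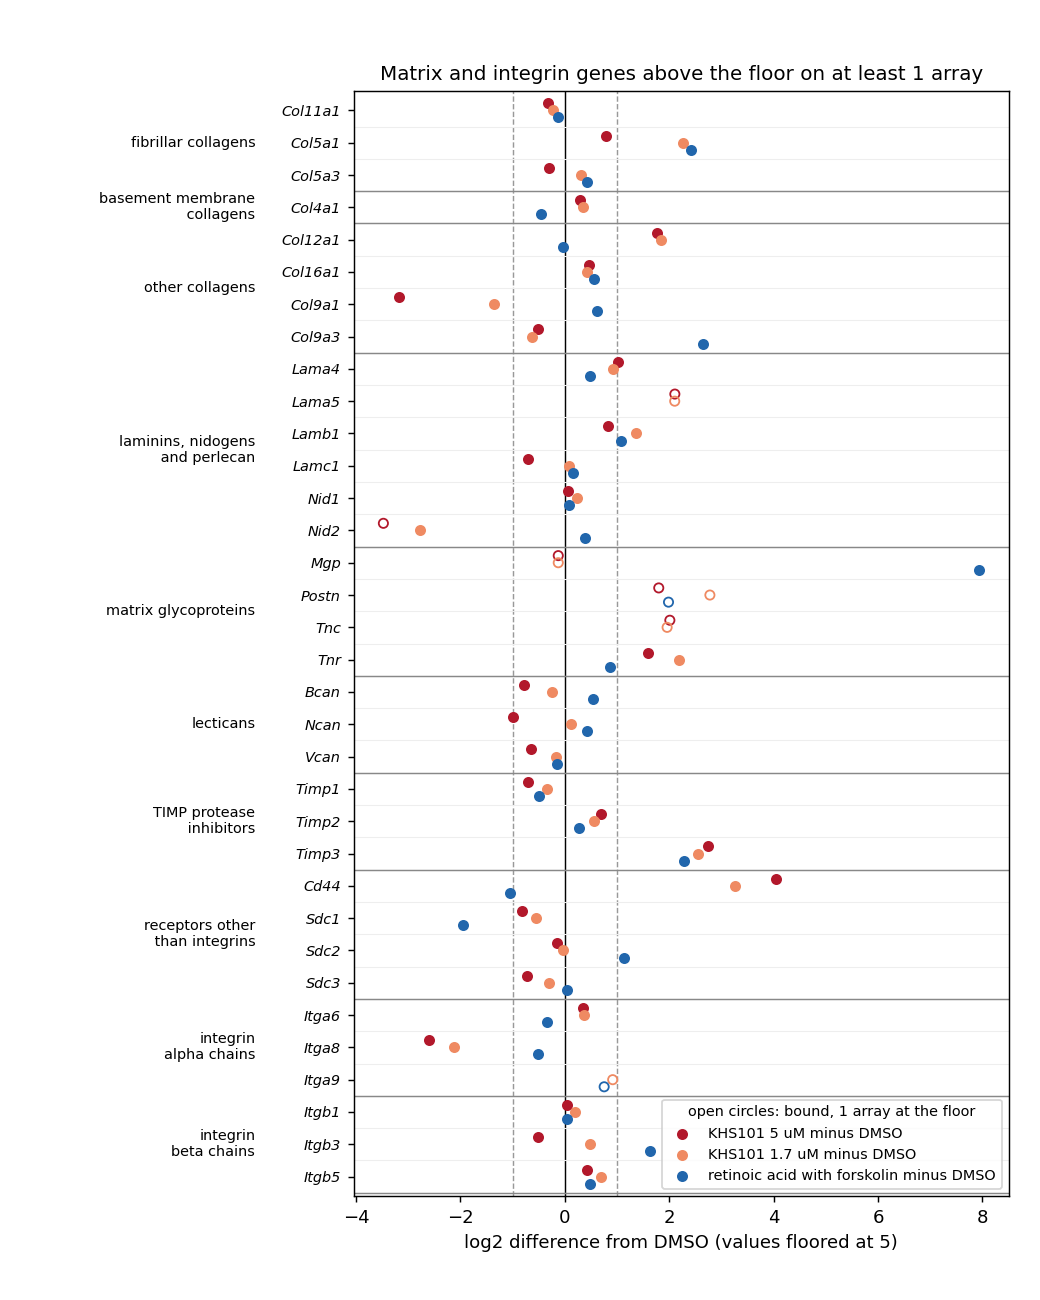
Log2 difference from DMSO (horizontal axis, values floored at 5) for the 34 genes above the floor on at least 1 array, grouped by role; 1 array per group, so no error bars. Filled circles are differences between arrays above the floor, open circles lower bounds, and dashed lines mark 2-fold; Mgp stands far to the right in retinoic acid with forskolin (7.93), and Cd44 to the right with KHS101 alone (4.05 and 3.26).

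Laminins are heterotrimers that organise basement membranes and carry the binding sites for integrins. Lama5, the alpha-5 chain, had values of 7.11 on both KHS101 arrays and 4.52 in retinoic acid with forskolin, against 4.41 in DMSO. Both KHS101 arrays were above the floor, at least 4.31-fold higher than DMSO at 5 uM and 4.30-fold at 1.7 uM, and the others were below it. Its other 2 probe sets were at the floor throughout, so the call rests on 1 of them. Lama4, the alpha-4 chain, had 12.87, 12.77 and 12.34 on the KHS101 5 uM, KHS101 1.7 uM and retinoic acid with forskolin arrays, against 11.86 in DMSO. It was 2.01-fold higher at 5 uM, on the threshold, and 1.88-fold and 1.40-fold higher with the other treatments; its other probe set had no signal. Lamb1, the beta-1 chain, had 9.77, 10.30 and 10.01, against 8.93 in DMSO, with folds of 1.78, 2.57 and 2.12. All treated arrays were above DMSO for both genes. Lamc1, the gamma-1 chain shared by most laminins, had 10.46, 11.24 and 11.32, against 11.16 in DMSO, and passed 2-fold in 0 of these comparisons.

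The nidogens join laminin to type IV collagen. Nid2 had values of 4.83, under the floor, with KHS101 at 5 uM, 5.69 at 1.7 uM and 8.86 in retinoic acid with forskolin, against 8.48 in DMSO. Both KHS101 arrays were low, at least 11.1-fold lower than DMSO at 5 uM and 6.88-fold lower at 1.7 uM. Retinoic acid with forskolin was 1.31-fold higher. Its relative Nid1 was next to the floor on all 4 arrays, between 5.06 and 5.30. Col4a1 had 8.17, 8.23 and 7.43 on the treated arrays in the same order, against 7.89 in DMSO. With retinoic acid and forskolin its probe sets gave log2 differences of -0.46 and -1.35, so a call would depend on the probe set.

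Among the other collagens the largest differences from DMSO were those of type IX, a collagen that sits on the surface of fibrils. Each of its chains was measured by 1 probe set. Col9a1 had 5.02, next to the floor, with KHS101 at 5 uM, 6.83 at 1.7 uM and 8.80 in retinoic acid with forskolin, against 8.19 in DMSO. It was 9.0-fold and 2.57-fold lower with KHS101, and 1.53-fold higher with the positive control. Col9a3, another chain of the same molecule, had 6.72 and 6.59 with KHS101 at 5 uM and 1.7 uM and 9.86 in retinoic acid with forskolin, against 7.23 in DMSO. It was 6.23-fold higher in retinoic acid with forskolin and within 2-fold with KHS101. The 2 chains thus had different orders over the arrays, and the third, Col9a2, was at the floor throughout. Col12a1, a fibril-associated collagen, had 6.97 with KHS101 at 5 uM, 7.05 at 1.7 uM and 5.17 in retinoic acid with forskolin, against 5.21 in DMSO. Both KHS101 arrays were high, 3.38-fold and 3.56-fold above DMSO. Its other 2 probe sets were at the floor on all arrays. Col16a1 differed from DMSO by between 0.43 and 0.56 in log2 with the 3 treatments.

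Col5a1 codes for the alpha-1 chain of type V collagen, which starts the assembly of collagen fibrils. It had 7.86 with KHS101 at 5 uM, 9.32 at 1.7 uM and 9.48 in retinoic acid with forskolin, against 7.07 in DMSO. That is 1.73-fold, 4.77-fold and 5.32-fold higher, so the higher KHS101 concentration had the smaller difference. A second probe set gave the same order, with log2 differences of 0.22, 1.43 and 1.53. Col5a3 and Col11a1, the other fibrillar collagen genes above the floor, differed from DMSO by at most 0.42 in size on the probe sets that stood for them.

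**Figure D3:**
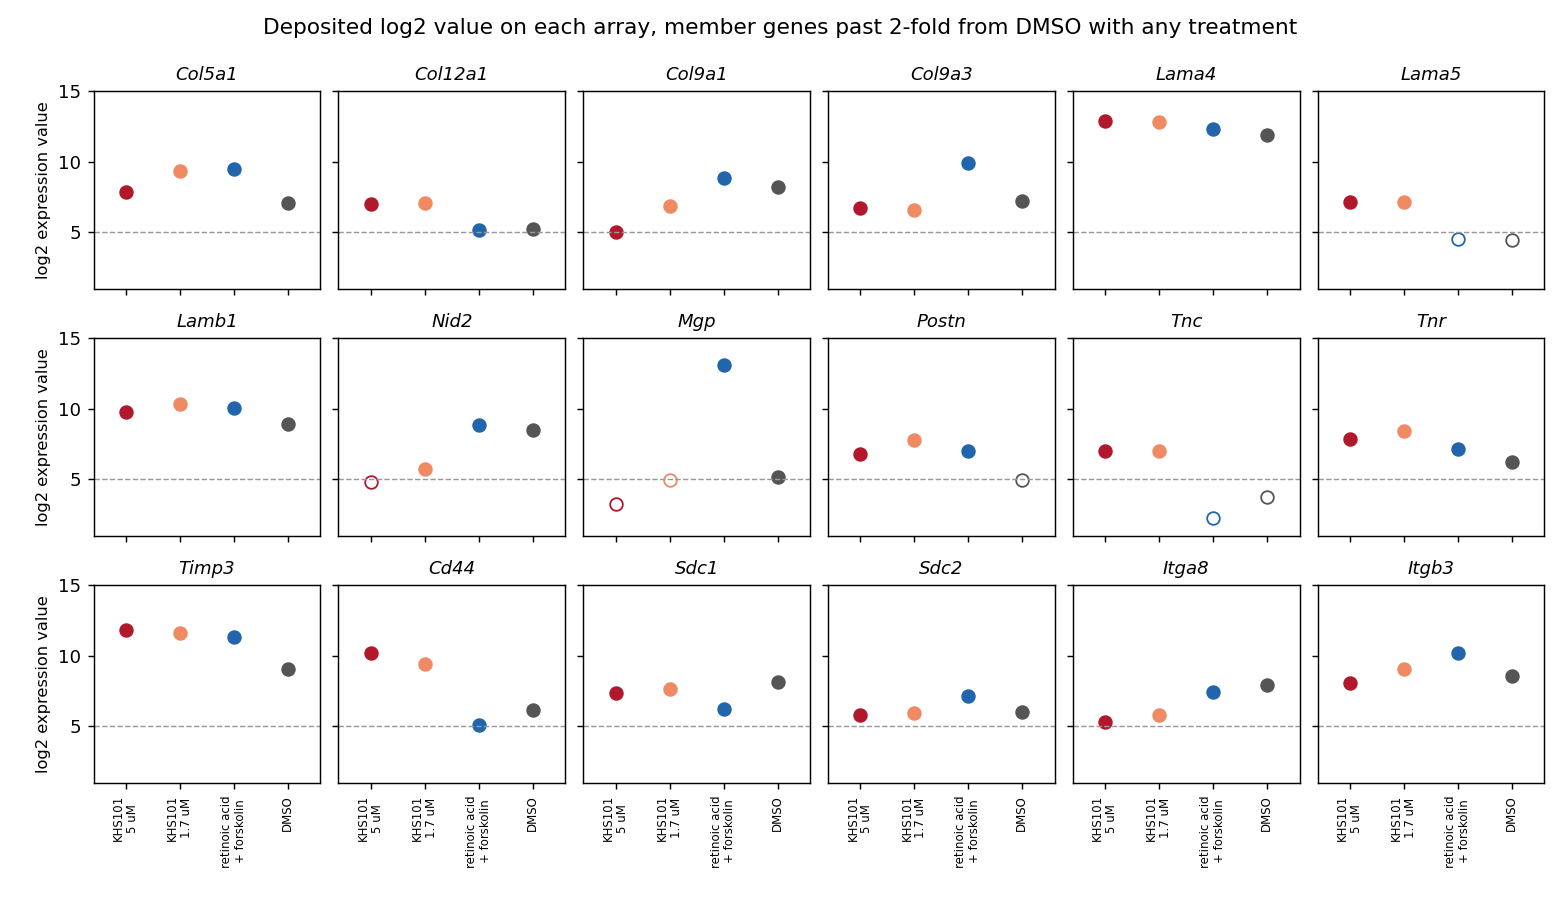
Deposited log2 value on each array for the 18 member genes that passed 2-fold from DMSO with at least 1 treatment, 1 panel a gene and 1 point an array. Open points lie at or below the floor of 5 (dashed line); Tnc and Lama5 are above the floor on the KHS101 arrays and not on the others, and Nid2 and Itga8 are low on the KHS101 arrays.

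The lecticans were all lower with KHS101 at 5 uM by less than 2-fold. Neurocan (Ncan) had 5.49 at 5 uM, 6.61 at 1.7 uM and 6.91 in retinoic acid with forskolin, against 6.48 in DMSO. At 5 uM it was 1.99-fold lower, just short of the threshold. Brevican (Bcan) had 11.34, 11.88 and 12.67, against 12.12 in DMSO. Versican (Vcan) had 10.56, 11.05 and 11.06, against 11.21 in DMSO; its other 2 probe sets with signal differed from DMSO by 0.04 and 0.10 at 5 uM, where the one with the highest signal gave -0.65.

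The syndecans are transmembrane heparan sulphate proteoglycans that act beside integrins and as co-receptors for growth factors. Sdc1 had 7.34 with KHS101 at 5 uM, 7.60 at 1.7 uM and 6.21 in retinoic acid with forskolin, against 8.16 in DMSO. It was 1.75-fold and 1.47-fold lower with KHS101, and 3.85-fold lower in retinoic acid with forskolin; its other probe set was at the floor on all arrays. Sdc2 had 5.81 and 5.93 with KHS101 and 7.11 in retinoic acid with forskolin, against 5.97 in DMSO, 2.20-fold higher on the last treated array. A second Sdc2 probe set gave a log2 difference of -0.30 there, from 5.08 against 5.38 in DMSO, both next to the floor. The call thus rests on 1 probe set, and the second gives little on direction. Sdc3 passed 2-fold with no treatment (-0.72, -0.31 and 0.04), and Sdc4 was at the floor throughout.

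Among integrins, the beta-1 chain Itgb1, which pairs with most alpha chains, had 12.27, 12.42 and 12.26 on the KHS101 5 uM, KHS101 1.7 uM and retinoic acid with forskolin arrays, against 12.22 in DMSO. These 4 values span 0.20 in log2. Itga6, which with beta-1 forms a laminin receptor, had 10.33, 10.34 and 9.64, against 9.99 in DMSO; its other probe sets with signal gave differences of -0.95 and -1.02 in retinoic acid with forskolin. Itga8, which with beta-1 binds nephronectin, fibronectin and tenascin-C, was the integrin gene with the largest difference from DMSO. It had 5.31 with KHS101 at 5 uM, 5.79 at 1.7 uM and 7.39 in retinoic acid with forskolin, against 7.91 in DMSO. Both KHS101 arrays were low, 6.07-fold and 4.34-fold under DMSO. Its other probe set was above the floor in DMSO alone, at 5.87.

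The beta-3 chain Itgb3 pairs with alpha-V as a receptor for vitronectin and osteopontin. It had 8.06 with KHS101 at 5 uM, 9.06 at 1.7 uM and 10.22 in retinoic acid with forskolin, against 8.58 in DMSO, 3.11-fold higher in retinoic acid with forskolin and within 2-fold with KHS101. Itgb5 was between 6.28 and 6.98 on the 4 arrays. Itga9, a receptor chain for tenascin-C, was above the floor on 2 arrays, 5.92 with KHS101 at 1.7 uM and 5.75 in retinoic acid with forskolin, against 4.40 in DMSO; both bounds were under 2-fold.

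Genes with several probe sets gave the sole repeat measurement, which covers probe noise only, as all probe sets share the RNA and the array. The called members Col9a1, Col9a3, Itgb3, Lamb1, Mgp, Nid2, Postn, Tnc and Tnr had 1 probe set each and lack even this. For members called with KHS101 at 5 uM, 5 of 5 other probe sets with signal differed from DMSO in the same direction, and 4 passed 2-fold. At 1.7 uM the counts were 6 of 6 and 5, and in retinoic acid with forskolin 5 of 6 and 4. The exception was Sdc2, whose other probe set was next to the floor on both arrays.

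**Figure D4:**
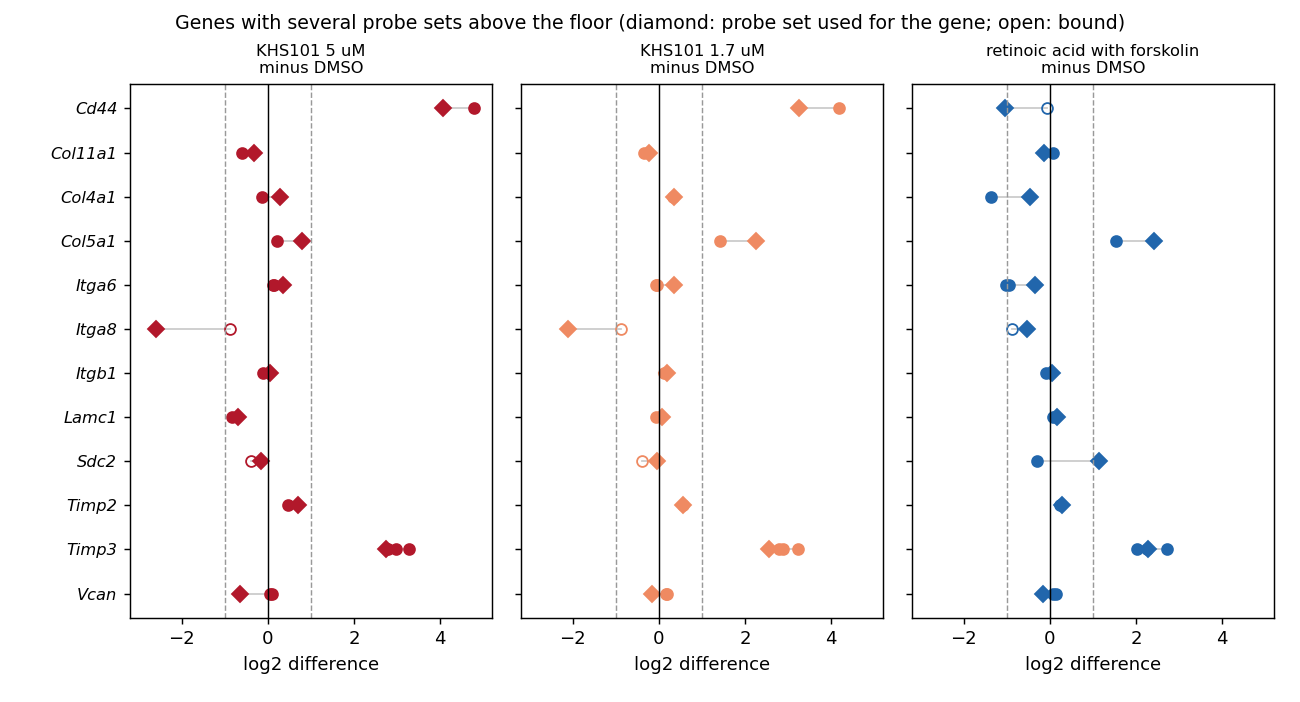
Log2 difference from DMSO (horizontal axis) of each probe set, for the 12 member genes with several probe sets above the floor, in 3 panels by treatment; diamonds are the probe sets that stood for the genes and open symbols are bounds. The 4 Timp3 probe sets lie together in each panel, between 2.02 and 3.26, while the Sdc2 probe sets lie on both sides of 0 in retinoic acid with forskolin.

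The KHS101 concentrations were then compared directly, which leaves the DMSO array out. Of 33 measured members, 0 were higher at 5 uM than at 1.7 uM and 3 were lower (9.09%), against a background of 2.54% called, 0.812% higher and 1.73% lower. The 3 were Col9a1 (3.51-fold lower), Col5a1 (2.76-fold) and Ncan (2.17-fold). The differences of 25 of the 33 were below 0 and of 8 above 0, and the median was -0.27, against -0.01 for all genes, of which 51.1% were below 0. Just short of the threshold were Itgb3, 1.999-fold lower at 5 uM, and Postn, 1.97-fold lower. The member furthest in the other direction was Cd44, 1.74-fold higher. The 3 laminin chains with signal on all arrays differed in this comparison by 0.10 (Lama4), -0.53 (Lamb1) and -0.78 (Lamc1) in log2.

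KHS101 at 5 uM was also set against retinoic acid with forskolin. Of 34 measured members, 5 were higher and 10 lower, 44.1% against a background of 19.2% (8.94% higher and 10.2% lower). Of the 34, 5 were above the floor on 1 array alone, and among them were 4 of the called genes (Lama5, Tnc, Mgp and Nid2). Among the 29 above it on both arrays, 3 were higher and 8 lower, 37.9% together, with a background of 18.2% for genes of that kind. The 5 higher genes were Cd44, Col12a1, Sdc1 (2.20-fold), Tnc and Lama5, the last pair as bounds of 4.03-fold and 4.31-fold. The 10 lower genes were led by Mgp, at least 267-fold lower, Nid2, at least 14.5-fold, Col9a1, 13.8-fold, and Col9a3, 8.85-fold. The others were Itgb3 (4.46-fold), Itga8 (4.23-fold), Col5a1 (3.08-fold), Ncan (2.67-fold), Bcan (2.51-fold) and Sdc2 (2.45-fold). Both type IX collagen chains with signal and the lecticans Ncan and Bcan were thus lower with KHS101 at 5 uM on this pair of arrays, with no DMSO value involved. Against DMSO, Col9a1 alone of these genes was called lower at 5 uM, and Col9a3 was called higher in retinoic acid with forskolin. Timp3 (1.38-fold), Postn (1.14-fold) and Itgb1 (1.00-fold) were within 2-fold of each other on these arrays.

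Oligodendrocyte lineage markers were among those that moved along with the genes lower under KHS101. Of 8 measured with KHS101 at 5 uM, 6 were lower and 0 higher than in DMSO (median log2 difference -1.16), against 8.1% of all measured genes lower. At 1.7 uM 2 of 8 were lower (-0.59), against 4.27%. In retinoic acid with forskolin 1 of 9 was higher and 0 lower (0.27), against 4.34% higher. The floored log2 values of the 9 genes summed to 87.6, 91.4 and 102 on the KHS101 5 uM, KHS101 1.7 uM and retinoic acid with forskolin arrays, and to 97.5 in DMSO. Other lists had lower sums with KHS101 too, though not every gene in them was lower. At 5 uM and 1.7 uM the neural progenitor list summed to 62.1 and 63.7, against 64.5 in DMSO, with Fabp7 4.33-fold and 2.31-fold lower. Its other genes with signal were not called and were mixed. Nes was higher with both concentrations (log2 differences 0.52 and 0.61) and Sox2 lower (-0.44 and -0.18). Vim differed by -0.40 at 5 uM and 0.02 at 1.7 uM. The astrocyte list summed to 55.63 and 56.85, against 57.11, with 0 genes called. In it S100b was higher (log2 differences 0.17 and 0.28), and Slc1a3 and Fgfr3 were lower. The fibroblast and meningeal list summed to 60.5 and 61.3, against 62.0. In it Pdgfra was 2.10-fold lower at 5 uM, Twist1 was lower by less, and Igf2 was higher (0.03 and 0.24). The neuron list went the other way, 53.2 and 53.6 against 52.4. The members called lower than DMSO at 5 uM were Col9a1, Nid2 and Itga8, and their relation to the share of any of these cells was not tested. Several lists moved with the genes that were higher in retinoic acid with forskolin, where 4.34% of all measured genes were called higher. The fibroblast and meningeal list, which shares Pdgfra with the oligodendrocyte lineage list, summed to 64.3 there, against 62.0 in DMSO. In it 1 of 4 measured genes was higher, and Dcn and Lum were at the floor. The astrocyte list summed to 59.5, against 57.1 in DMSO, with 2 of 3 higher (S100b 2.08-fold and Fgfr3 2.52-fold, median log2 difference 1.05), and Gfap and Aqp4 were at the floor. The endothelial list summed to 41.7, against 40.0 in DMSO, where all its genes were at the floor; Kdr was at least 2.91-fold higher. In the neuron list, which summed to 53.7 against 52.4 in DMSO, Tubb3 was 2.20-fold higher and Dcx and Rbfox3 were at the floor. The neural progenitor list went the other way, 63.0 against 64.5 in DMSO. In it 1 of 4 measured genes was lower (Vim, 2.16-fold), against 3.15% of all measured genes. Nes, Sox2 and Fabp7 differed by -0.69, -0.20 and 0.50 in log2. The part of these lists in the results was not tested. The 3′ minus 5′ log2 difference of the control probe sets for beta-actin, a sign of RNA integrity and labelling, was 1.54, 1.40 and 1.37 on the treated arrays, against 1.26 in DMSO. For hexokinase it was 0.96, 0.80 and 0.66, against 0.69, and for GAPDH between -0.16 and -0.11 on all arrays. Its part was not tested.

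Other genes of the pathway, from lists that hold no members, were described in the same way. Over all measured genes, the share called higher or lower was 14.3% with KHS101 at 5 uM, 8.63% at 1.7 uM and 7.49% in retinoic acid with forskolin. Among 17 measured metalloproteases and inhibitors 3 were higher and 3 lower with KHS101 at 5 uM, 4 and 1 of 17 at 1.7 uM, and 3 and 1 of 16 in retinoic acid with forskolin. Mmp11, stromelysin-3, had 12.22, 12.28 and 10.29, against 9.17 in DMSO, 8.25-fold, 8.63-fold and 2.18-fold higher. The lectican-cleaving protease gene Adamts9 had 6.78, 8.02 and 6.93, against 5.46, and the plasminogen activator Plat 9.49, 9.75 and 10.69, against 8.34. Mmp16, a membrane-bound metalloprotease, had 8.75, 9.47 and 9.60, against 10.74, and was lower with each treatment. Mmp17 (2.65-fold) and the sheddase Adam10 (2.38-fold) were lower at 5 uM.

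Of 17 other matrix proteins measured, 1 was higher and 5 lower with KHS101 at 5 uM, 4 and 2 at 1.7 uM, and 1 and 1 in retinoic acid with forskolin. The background, higher and lower, was 6.16% and 8.1%, 4.36% and 4.27%, and 4.34% and 3.15%, in that order. Tgfbi was the higher one at 5 uM (2.08-fold). At 1.7 uM the largest higher differences were those of Thbs4 (2.33-fold), Hapln4 (2.29-fold) and Fbn1 (2.28-fold). Thbs4 and Fbn1 were near the floor in DMSO, at 5.26 and 5.63. Emilin1, an elastic fibre glycoprotein, had 7.89, 8.80 and 8.85, against 9.98 in DMSO. Smoc1, a secreted calcium-binding matrix protein, had 8.58 and 9.97 with KHS101 and 12.26 in retinoic acid with forskolin, against 10.61, 4.09-fold lower at 5 uM and 3.13-fold higher in retinoic acid with forskolin. The brain proteoglycan Cspg5 had 7.56, 8.24 and 9.12, against 9.46.

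Of 23 measured integrin adaptors and other integrin chains, 2 were higher and 1 lower with KHS101 at 5 uM, 2 higher at 1.7 uM and 1 higher in retinoic acid with forskolin. Over all measured genes 14.3%, 8.63% and 7.49% were called, in that order, so this list lay near or below the background. Vinculin (Vcl), which ties integrin complexes to actin, had 8.62, 8.62 and 8.47, against 7.55 in DMSO. The actin cross-linker Flna had 10.98, 11.30 and 9.81, against 9.95. Itgav, the alpha-V chain that pairs with Itgb3 and Itgb5, had 11.26, 12.16 and 12.92, against 12.36 in DMSO, 2.14-fold lower at 5 uM. Parvb was 2.42-fold higher in retinoic acid with forskolin. Of 9 measured enzymes that process matrix, 10 in retinoic acid with forskolin, 1 was lower at 5 uM, the lysyl oxidase relative Loxl3 (3.23-fold), and 0 were called in the other comparisons with DMSO. Of 4 hyaluronan genes 0 were called with any treatment.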

How the data were processed

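RNA of 4 cultures of rat hippocampal progenitor cells, 1 per group, was hybridised to Affymetrix 3′ expression arrays. The deposited values are log2 expression values of 31099 probe sets; per the submitters' processing notes the tools were GCRMA and R 2.6.2, with no step or genome build. The values themselves showed the log2 scale. At equal ranks the 4 columns differed by at most 0.189, so a shift common to all genes would be invisible, and GCRMA compresses absent signal to low values, for which the floor was set.

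The platform annotation gave 1 symbol to 20826 probe sets (14217 genes), several to 436 and none to 9780; 57 controls were left out. All 134 member identifiers matched RefSeq with the same symbol. Each gene was represented by its brightest probe set on average. Values under log2 = 5 were raised to 5, and differences of 1 or more in size were called. The calling step was run on simulated data with large shifts in genes well above the floor and an assumed noise. This checks that the step works as defined, and not how reliable the calls are, above all near the floor. No group has a replicate, so no test was run; the number of arrays limits the precision. Alternatives were a floor of 4 or 6 or none, a 3-fold threshold, the mean of all probe sets and quantile normalization.

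Every member could be named. Values on all arrays are given for members called against DMSO, and for pathway lists up to 3 called genes a direction. The members, lists, floor and threshold were chosen with earlier results of these data known, and the 4 promoters shown after the values were seen. Calculations used Python 3.11.15, pandas 2.3.3 and numpy 2.4.6.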

Additional observations from a re-analysis of the deposited data

How the results depend on the processing

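No paired analysis was possible because each group is 1 array. Signal over background limits the members at or next to the floor on some arrays; a floor of 6 cost calls against DMSO of Postn, Col12a1, Tnc and Cd44. Of 165 values of members called against DMSO under 5 settings, 152 stayed past 2-fold, 13 did not and 0 changed sign. With the mean of all probe sets, which draws in probe sets without signal, the higher members were 5 in place of 8 for KHS101 5 uM minus DMSO and 2 in place of 5 for KHS101 5 uM minus retinoic acid with forskolin; the lower ones for retinoic acid with forskolin minus DMSO were 0 in place of 2. The members lost there were Col12a1, Lama4 and Lama5 (log2 differences of 0.59, 0.50 and 0.70 at 5 uM), and in retinoic acid with forskolin Cd44 (-0.55), Sdc1 (-0.97) and Sdc2 (0.28). With a floor of 6, Postn came to 0.80 at 5 uM and 0.99 in retinoic acid with forskolin, Col12a1 to 0.97 at 5 uM, Tnc to 0.96 at 1.7 uM and Cd44 to -0.14 in retinoic acid with forskolin. A floor of 6 and a 3-fold threshold each left 1 lower member for retinoic acid with forskolin minus DMSO, and 1 for KHS101 5 uM minus KHS101 1.7 uM, where 3 were lower with the reported settings and 5 without a floor. Without a floor, which adds the genes without signal, the members' median was 0.03 for retinoic acid with forskolin minus DMSO, -0.02 for KHS101 1.7 uM minus DMSO and 0.04 for KHS101 5 uM minus KHS101 1.7 uM. With the mean of all probe sets these medians were 0.26, 0.19 and -0.14, against 0.42, 0.33 and -0.27 as reported. For KHS101 5 uM minus DMSO the median, 0.04 as reported, was 0.16 with a floor of 6 and -0.03 with the mean of all probe sets. The other counts of members called stayed within 1.5 times.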
